A study of Mus musculus with 65 samples.

Results

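The sites described here are 1416 of 29632 dREG sites (4.78%), those that gained nascent transcription within 1 h of LBH589 in mouse erythroleukemia (MEL) cells. A dREG site is a stretch of the genome that run-on data mark as a transcribed promoter or enhancer. A site was taken as gained when its mean normalized count after 1 h of LBH589, plus 1, was at least 0.8 higher on the log2 scale than its DMSO mean plus 1, and when its 1 h mean was at least 20. The members were thus selected on their measured levels in these 6 libraries, so the levels in DMSO and after 1 h of LBH589 are a description and carry no test.

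PRO-seq, which sequences the RNA that engaged polymerases have just made, was run on 65 libraries of MEL cells in 4 experiments. All groups carried the same cell line label, MEL Mtg16-FKBP-2XHA: the corepressor Mtg16 bears a degradation tag, so that 250 nM dTAGV1 (the degrader) removes it. The labels do not say whether the line is a single clone or whether replicates came from separate cultures, so p-values measure only the spread between these libraries. In bulk libraries, more cells with an active site and more transcription per cell cannot be told apart.

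The LBH589 series held 9 libraries, 3 each of DMSO, 5 nM LBH589 for 30 min and 5 nM LBH589 for 1 h, and the labels of its LBH589 groups name no degrader. Library names of all DMSO groups give 0 h, so no DMSO group is matched in time to a treatment. The A485 series held 28 libraries: DMSO, and 15 min, 30 min or 1 h of the degrader, of 10 µM A485 or of both, with 3 libraries a group and 2 in the 30 min groups of A485 and of both. The time course held 22 libraries: DMSO, degrader for 15 min, 30 min and 1 h (3 each) and for 2 h (2), and washout of 30 min (3), 1 h (2) and 2 h (3) after 2 h of degrader. Its 1 h and 2 h degrader groups (5 libraries) carry conflicting labels: their library names give the degrader, their titles and treatment entries A485. They are called the libraries labelled degrader here, and every direction drawn from them depends on the library name. The LBH589 washout series held 6 libraries, 3 each of 30 min and 1 h of washout that followed 2 h of 250 nM dTAGV1, in cells that also received 5 nM LBH589, with no DMSO group, and the time at which LBH589 was given is not stated in the labels.

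Histone deacetylases (HDACs) remove acetyl groups from lysines of histones and other proteins, and corepressors such as Mtg16 recruit them to chromatin. LBH589 (panobinostat) blocks many HDACs at once. The acetyltransferases p300 and CBP, which A485 inhibits, add such groups, above all at active enhancers, and short transcripts made in both directions are a mark of those enhancers.

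Recovered dREG reads per library ran from 2769517 to 4633612 in the LBH589 series. In the time course they ran from 1969884 to 6959404, in the A485 series from 857558 to 7625202, and with LBH589 and washout from 1493605 to 3505967. The cells looked erythroid by their nascent transcripts: 7 of 8 erythroid markers were in the gene table, each with a DMSO mean of at least 10, and their summed normalized count was 12420 to 12910 over the 3 DMSO libraries. Summed counts in DMSO were 4576 to 4817 for 3 of 4 megakaryocyte markers (Itga2b alone had a mean of 4603), 58.6 to 60.9 for 2 of 5 granulocyte and macrophage markers, 25.4 to 31.4 for 2 of 4 lymphoid markers and 78.9 to 82.4 for 1 of 4 markers of stroma and epithelium. After 1 h of LBH589 the erythroid sum was 8617 to 8859, below every DMSO library, and so was the megakaryocyte sum at 2776 to 2897. The other 3 sums lay above every DMSO library, at 76.3 to 82.8 for granulocytes and macrophages, 32.8 to 35.9 for lymphoid cells and 111.9 to 133.3 for stroma and epithelium. The part of these shifts in the sites' values was not tested. Of the time course libraries 3 stood apart, with a mean correlation under 0 with the rest of their group: degrader 15 min replicate 2 (-0.21), degrader 30 min replicate 3 (-0.25) and 30 min washout replicate 3 (-0.23). In the LBH589 washout series 1 h replicate 3 was at -0.09. Most counts and shares of called sites that rest on these libraries are given with and without them. Others are given only with them, such as calls shared by both washout comparisons, the split by 30 min response and the lost sites. Each time course or LBH589 washout call given below for a single site passed the same way without these libraries.

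Most gained sites were modest elements in DMSO and not silent ones. Their DMSO mean had a median of 22.2 normalized counts and a middle range (25th to 75th percentile) of 13.4 to 41.3, against a median of 32.7 over all sites. The median was 34.6 after 30 min and 48.5 after 1 h of LBH589, while over all sites it was 33.8 and 35.2. In DMSO 161 gained sites had a mean under 10 and 76 had one of at least 100, a number that was 301 after 1 h. The log2 ratio at 1 h had a median of 1.04 and reached 2.90, with 813 sites at 1 or more, 152 at 1.5 or more and 20 at 2 or more.

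At 30 min the gain was already partly present. The log2 ratio of 30 min to DMSO had a median of 0.61, with a middle range of 0.40 to 0.85. It was at 0.8 or more for 407 gained sites, between 0 and 0.8 for 965 and at or under 0 for 44. The 1 h mean was above the 30 min mean at 1340 sites and at or below it at 76. The 30 min libraries are set against the same DMSO libraries that the choice of sites used, so these are values only. By the choice of sites, all 3 libraries of 1 h lay above all 3 DMSO libraries at 1379 gained sites (97.4%), where 20% of all sites did so. All 3 libraries of 30 min did at 871 (61.5%), where 13.8% of all sites did so. Neither share lends support, since the choice used these DMSO libraries.

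**Figure D1:**
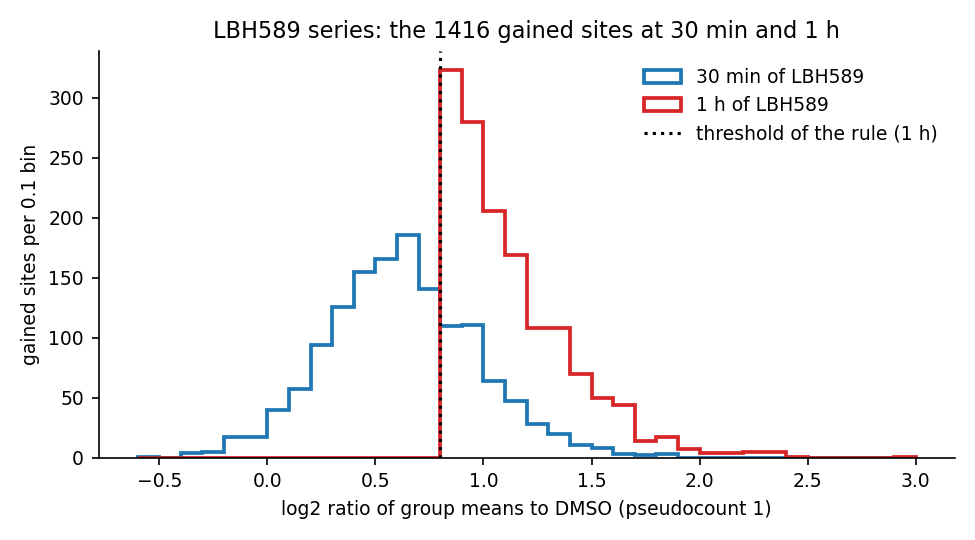
Histogram of the log2 ratio of group means to DMSO (x axis, pseudocount 1) over the 1416 gained sites, in bins of 0.1 (y axis, sites per bin), for 30 min (blue) and 1 h (red) of LBH589. The red curve starts at the dotted threshold of 0.8 by choice, and 407 sites of the blue curve lie at or beyond it.

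The highest ratio belonged to chr13:112031061-112031430 (build mm39, as are all positions here), a site of 370 bp that was close to unread in DMSO. Its recovered reads were 0, 3 and 2 in the 3 DMSO libraries, 8, 13 and 8 at 30 min and 28, 19 and 23 at 1 h. These are few reads, and its log2 ratio of 2.90 rests on them. In the A485 series the site had 9.15, 2.22 and 4.90 normalized counts in DMSO and 4.46, 10.5 and 11.0 after 1 h of degrader, ranges that overlap, and it was under the minimum mean of 10 for a test.

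A better covered example was chr5:125484201-125484660, with a log2 ratio of 2.49. Its normalized counts were 9.74, 10.2 and 12.8 in DMSO, 23.0, 18.2 and 21.0 at 30 min and 70.5, 41.9 and 85.7 at 1 h, so that the 3 groups did not overlap. Most of its gain came after 30 min. In the A485 series it had 11.9, 17.8 and 16.7 in DMSO and 23.9, 26.7 and 29.4 after 1 h of A485 (log2 change 0.77 ± 0.31, SE, limma adjusted p = 0.042).

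At 76 sites the 30 min mean was at or above the 1 h mean, and these examples were picked after their values were seen. The site chr2:164025931-164026360 was higher at 30 min than at 1 h. It had 11.1, 10.2 and 9.59 normalized counts in DMSO, 46.1, 29.7 and 47.3 at 30 min and 23.5, 23.7 and 14.9 at 1 h. Every 30 min library lay above every 1 h library there. Likewise chr14:74840301-74841240 had 8.35, 5.69 and 10.7 in DMSO, 24.6, 32.6 and 27.3 at 30 min and 17.6, 27.3 and 23.6 at 1 h, and its 30 min and 1 h groups overlapped.

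Among the strongest gained sites, chr5:77241761-77243140 had the highest level. Its normalized counts were 450, 534 and 459 in DMSO, 716, 792 and 727 at 30 min and 934, 809 and 984 at 1 h. A pair of strong sites lay close together on chromosome 9. At chr9:22060381-22061550 the counts were 221, 254 and 223 in DMSO and 789, 568 and 677 at 1 h, and at chr9:22075571-22077530 they were 228, 230 and 225 in DMSO and 503, 481 and 535 at 1 h. Neither site overlapped between these groups.

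At the edge of the choice, members and non-members had like values. Just above the threshold stood chr10:117708491-117710130, with 50.1, 36.4 and 41.6 normalized counts in DMSO and 85.5, 62.8 and 76.9 at 1 h. Just below it, and so left out, stood chr3:66874821-66875280, with 27.8, 18.2 and 19.2 in DMSO and 36.1, 48.2 and 31.5 at 1 h.

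Gained sites were wider than the typical dREG site, with a median width of 790 bp against 560 bp. The choice required a minimum level, and the 18774 sites with a 1 h mean of at least 20 had a median of 750 bp, and 7.54% of them were gained. Sites of 300 bp or less made up 4.94% of the gained sites, 12.8% of all sites and 5.11% of the sites with a 1 h mean of at least 20. Gained sites lay on every chromosome except Y, where 0 of 25 sites were gained, and their share ran from 3.5% of the sites on X to 6.85% on chromosome 3.

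Most had no gained site beside them: 230 (16.2%) had another gained site as a direct neighbour within 10000 bp. Of the 1184 neighbouring pairs with at least 1 gained site, 124 (10.5%) were gained at both. For scale, 13554 pairs of neighbouring sites lay within that distance. The 4.78% of all sites that were gained is a share of sites and not of pairs, so it is no background for the 10.5%. Whether gained sites lie together more often than their share gives was not tested. The longest run held 4 gained sites on chromosome 13, from 45595781 to 45609560, with log2 ratios at 1 h of 1.49, 1.42, 1.39 and 1.06. Its first site, chr13:45595781-45596810, had 13.9, 17.1 and 14.9 normalized counts in DMSO, 33.4, 52.7 and 36.8 at 30 min and 41.9, 48.2 and 44.6 at 1 h. Neighbouring sites may belong to one element or gene, so they are not independent.

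Summed over the gained sites, the share of a library's dREG signal can be followed through all 4 experiments. In the LBH589 series it was 1.29% ± 0.06 (SD, n = 3) in DMSO, 2.14% ± 0.11 at 30 min and 3.18% ± 0.16 at 1 h, by choice. In the A485 series, none of whose libraries entered the choice, it was 2.12% ± 0.13 in DMSO, 2.91% ± 0.09 after 1 h of degrader, 2.72% ± 0.24 after 1 h of A485 and 2.56% ± 0.05 after 1 h of both (n = 3 each), and each of the last 3 groups lay above all DMSO libraries. In the time course, over the 1386 gained sites (97.9%) that its table holds, it was 2.06% ± 0.15 in DMSO and 1.43% ± 0.06 after 2 h of washout (n = 3 each), without overlap. DMSO shares differ between experiments, and the tables were normalized separately and their sites read at different depths, so levels are compared only within an experiment.

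**Figure D2:**
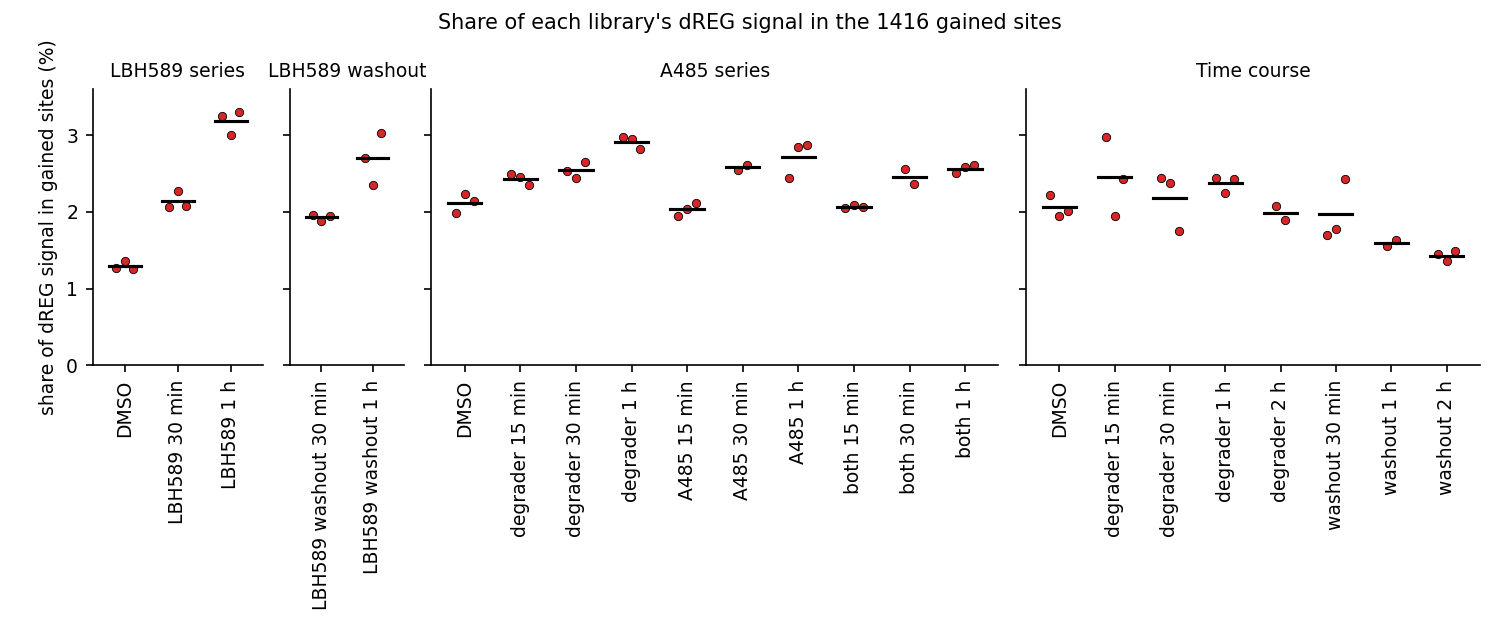
Share of each library's dREG signal that falls in the gained sites its table holds (y axis, percent), by group (x axis) in the 4 experiments; points are libraries and bars are group means. The share rises to 3.18% in the LBH589 series by the choice of sites, and in the time course it is lowest after 2 h of washout, at 1.43%.

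The degrader raised many of the gained sites. By 1 h in the A485 series, 404 of 1262 gained sites tested (32.0%) were higher than DMSO and 25 (1.98%) were lower, where 16.2% and 10.4% of all tested sites were. The median log2 change of the tested gained sites was 0.45, with a middle range of 0.06 to 0.88, against 0.01 over all sites. Tests throughout used limma at an adjusted p of 0.05 over every site of a table with a mean of at least 10, and 154 gained sites fell under that mean in this table. That mean is over all libraries of a table, so a low site could pass through the groups where it was high. At 15 min 90 were higher (7.13%, against 4.21% of all sites) and at 30 min 180 were higher (14.3%, against 7.37%). Sites that passed lower at 30 min numbered 6 with limma and 22 with edgeR (1.23% of all sites passed lower at 15 min and 3.05% at 30 min). At 15 min limma called 0 gained sites lower and edgeR 4, with 278 past an unadjusted p of 0.05 in either direction.

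The DMSO libraries are shared by these 3 times, so the counts are not independent of one another. The count of 25 lower sites was 14 without DMSO replicate 4 and 16 without replicate 5. It was 41 with edgeR on recovered reads and 42 with a replicate block. The 404 higher sites ranged from 280 to 371 when single libraries were left out and were 462 with edgeR.

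One of the 4 largest rises was at chr12:69804891-69806440. It had 35.7, 73.4 and 34.3 normalized counts in DMSO and 293, 275 and 208 after 1 h of degrader, a log2 change of 2.49 ± 0.26 (SE, adjusted p = 4.7e-09). Under LBH589 the same site had 39.0, 47.8 and 44.7 in DMSO, 88.1, 104 and 112 at 30 min and 112, 121 and 144 at 1 h, the last 2 groups meeting at 112. Treated libraries lay above all DMSO libraries in both experiments, but under LBH589 the site was chosen for this, so that part lends no support.

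The largest rise was at chr13:83259691-83260790, which had 6.4, 7.78 and 7.84 normalized counts in DMSO and 60.7, 74.1 and 69.0 after 1 h of degrader (3.05 ± 0.39, adjusted p = 2.8e-07). Under LBH589 it had 6.96, 4.55 and 10.7 in DMSO and 21.0, 22.8 and 18.4 at 1 h. The largest fall called among gained sites was at chr1:153285751-153286180, with 26.5, 22.2 and 18.6 in DMSO and 2.68, 11.3 and 3.48 after 1 h of degrader (-1.98 ± 0.54, adjusted p = 0.0054). That site had 15.3, 23.9 and 30.9 in DMSO and 40.3, 51.0 and 51.6 after 1 h of LBH589, so it moved in opposite directions in the 2 experiments.

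The share called varied with width and level. Of the widest 472 gained sites (980 bp and over), 454 were tested and 42.7% rose after 1 h of degrader, and of the narrowest 472 (630 bp and under), 376 were tested and 19.9% rose. By DMSO level in the LBH589 series the shares were 24.4% of the tested sites of the lowest group of 472 and 38.3% of the highest. Ordered by the size of the LBH589 ratio, the shares were 31.4% of the tested sites in the lowest group by ratio, 32.6% in the middle and 32.1% in the highest. Wider sites also had more counts (median DMSO mean 35.3 against 14.9), and the part of counts in these shares was not tested.

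The time course gave a second, separate set of DMSO and degrader libraries. There 219 of 1370 gained sites tested rose at 15 min (16%, against 11.7% of all sites) and 8 fell (0.584%, against 2.16%). At 30 min 213 rose (15.5%, against 12%) and 46 fell (3.36%, against 4%), and in the libraries labelled degrader 1 h 251 rose (18.3%, against 12.3%) and 15 fell (1.09%, against 3.07%). Without the 3 libraries that stood apart, 353, 268 and 320 rose and 18, 37 and 72 fell at these times, where 15.2%, 13.0% and 15.9% of all sites then rose and 8.93%, 4.88% and 8.3% fell. The share of dREG signal in gained sites at 15 min was 2.97%, 1.95% and 2.43% in replicates 1, 2 and 3, so that replicate 2 was at the DMSO level of 1.95% to 2.22%.

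In the libraries labelled degrader 2 h the share of gained sites that rose was close to that of all sites. There 134 rose (9.78%, against 8.92% of all sites), 39 fell (2.85%, against 1.58%), and the median log2 change was -0.12, against -0.01 over all sites. Without the 3 libraries that stood apart 194 rose and 138 fell, where 12.7% and 4.75% of all sites then did. With 2 libraries in the group these counts were unsteady: 74 rose without degrader 2 h replicate 1, and 23 or 3 fell without replicate 1 or 2. Without DMSO replicate 1 or 3 the number that fell was 23 or 25.

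Large changes were still seen at single sites. The chromosome 12 site at 69804891 had 65.4, 56.7 and 67.1 normalized counts in DMSO and 278 and 348 in the libraries labelled degrader 2 h (2.29 ± 0.18, adjusted p = 2.5e-09). The largest rise at 2 h was at chr6:55332831-55333180, from 16.8, 7.31 and 0 in DMSO to 44.5 and 27.6 (2.77 ± 0.67, adjusted p = 0.0058). In the A485 series the same site rose from 5.49, 3.34 and 7.84 to 23.2, 26.2 and 30.2 after 1 h of degrader. At chr9:100238821-100239680 the counts fell from 39.2, 21.9 and 16.4 to 3.27 and 2.59 (-2.69 ± 0.41, adjusted p = 3.7e-05), the largest fall.

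The 2 experiments with the degrader can be set against each other because their control libraries are separate. Of 1244 gained sites tested in both, 402 rose after 1 h in the A485 series and 223 rose in the libraries labelled degrader 1 h of the time course. The 166 in both lists were 41.3% of the first list and 74.4% of the second. Over all sites, 42.1% of those that rose in the A485 series rose in the time course, so the share among gained sites was near the background. Of the 817 that passed in neither direction in the A485 series, 6.98% rose in the time course, against 5.76% of all such sites. Without the 3 libraries that stood apart, 204 of the 402 (50.7%) rose in the time course, which was 71.3% of 286, and the share over all sites was 50.8%.

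**Figure D3:**
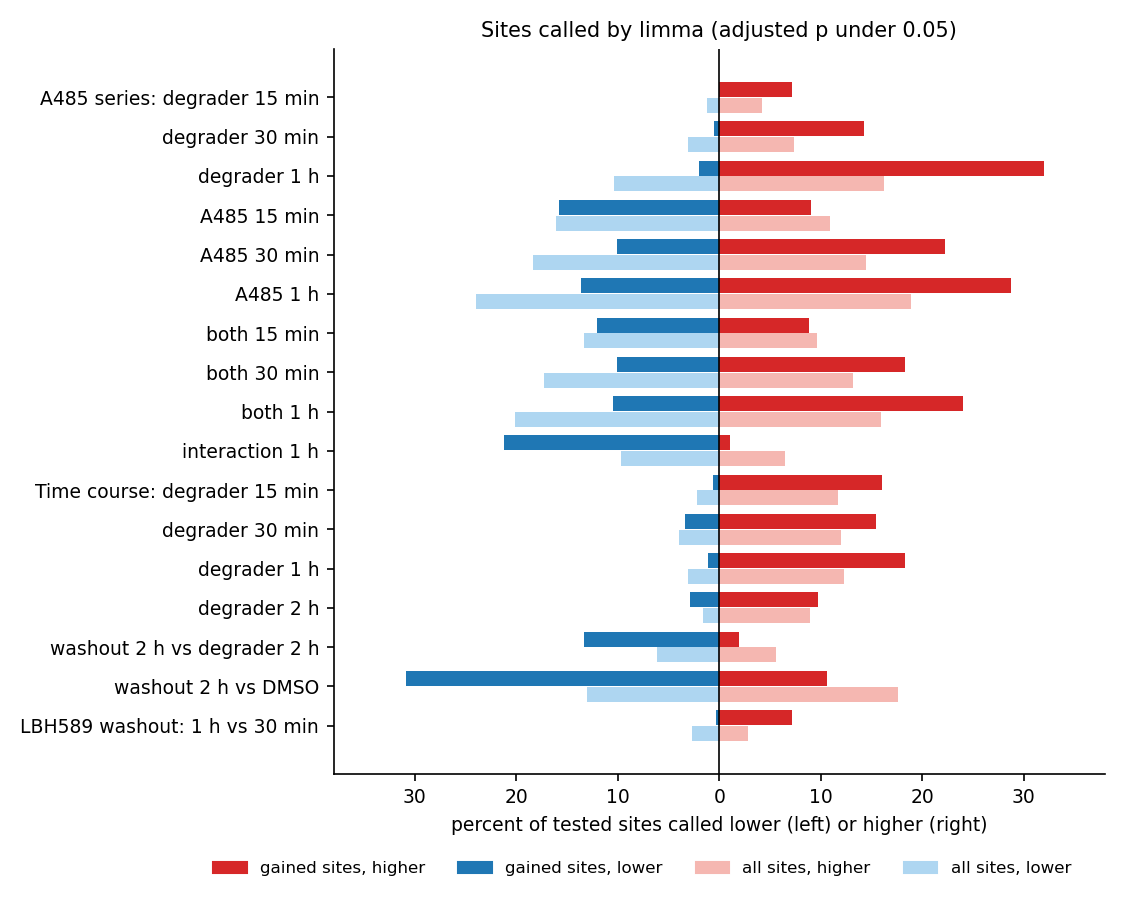
Percent of tested sites that limma called higher (right) or lower (left) at an adjusted p under 0.05, for gained sites (dark bars) and for all tested sites (pale bars) in 17 comparisons. For 1 h of degrader in the A485 series the dark bar reaches 32.0% and the pale bar 16.2%, and for 2 h of washout against DMSO the dark bar on the left reaches 30.9% and the pale bar 13%.

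With p300 and CBP inhibited, gained sites moved both ways. At 1 h of A485, 364 of 1262 tested were higher than DMSO (28.8%, against 18.9% of all sites) and 172 were lower (13.6%, against 24%). The median log2 change was 0.20, with a middle range of -0.36 to 0.72, against -0.02 over all sites. At 15 min 114 were higher and 199 lower (9.03% and 15.8%, against 11% and 16%), with a median of -0.09. At 30 min 282 were higher and 128 lower (22.3% and 10.1%, against 14.5% and 18.3%). The libraries of DMSO and of 15 min of A485 are numbered 4 to 6. Those of 30 min and 1 h of A485 are numbered from 1, so time of A485 and library numbering cannot be told apart. The A485 1 h libraries held 857558, 2131083 and 1721067 reads and the DMSO libraries 2671469 to 3241253, and the part of this gap in the counts was not tested. With edgeR on recovered reads 397 were higher and 123 lower at 1 h, and 354 and 122 were called the same way by both tools, so that 50 of the lower calls were made by limma only. With only the A485 1 h and DMSO groups in the fit 276 were higher and 93 lower. In data simulated at these depths more of limma's A485 calls were false than the nominal share, most of them on the lower side. The simulation held few changed sites and a single fixed spread, so its false share cannot be carried over to these counts.

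The 2 ends of this split can be seen in single sites. At chr9:87136961-87137360 the normalized counts went from 6.4, 22.2 and 17.6 in DMSO to 130, 54.9 and 48.4 after 1 h of A485 (2.27 ± 0.38, adjusted p = 6.8e-06). At chrX:167422531-167422840 they went from 18.3, 20.01 and 15.7 to 71.9, 94.3 and 98.6 (2.23 ± 0.25, adjusted p = 3.4e-09). The strong chromosome 9 site at 22060381 went from 422, 523 and 454 to 828, 929 and 929 (0.94 ± 0.11, adjusted p = 1.1e-08). In all 3 every A485 library lay above every DMSO library.

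The deepest fall was at chr1:133743211-133744960, which went from 24.7, 23.3 and 28.4 normalized counts to 3.42, 7.04 and 0 (-3.01 ± 0.43, adjusted p = 4.9e-07). Under LBH589 this site had 54.3, 55.7 and 42.6 in DMSO and 96.5, 98.3 and 83.9 at 1 h. It rose with the degrader in both experiments, to 85.6, 91.6 and 65.0 after 1 h in the A485 series (1.61 ± 0.43, adjusted p = 0.0049) and by 1.87 ± 0.32 in the libraries labelled degrader 1 h (adjusted p = 0.0001).

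At chr15:101214871-101215690 the counts fell from 56.7, 48.9 and 46.1 to 6.84, 2.81 and 13.8 with A485 (-2.75 ± 0.36, adjusted p = 6.5e-08). In the time course it had 24.3, 21.9 and 20.9 in DMSO and 41.9 and 48.3 in the libraries labelled degrader 2 h (0.98 ± 0.23, adjusted p = 0.0045). The first site of the run on chromosome 13 fell from 26.5, 31.1 and 35.3 to 0, 5.63 and 15.6 (-2.73 ± 0.52, adjusted p = 4.3e-05). The second site of that run also fell (-1.70 ± 0.50, adjusted p = 0.0054), while the remaining members of the run had -0.36 ± 0.41 and -0.71 ± 0.37 and did not pass.

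The calls for A485 were set against those for the degrader in the time course, whose libraries are separate. Of 172 gained sites lower after A485, 64 (37.2%) rose in the libraries labelled degrader 1 h of the time course, where 24.6% of all sites of that kind did. Of 358 higher after A485, 28 (7.82%) rose, against 4.64% of all such sites, and of the 714 that passed in neither direction 131 (18.3%) rose, against 7.39%. The share was higher among gained sites than among all sites in each of these 3 classes. Without the 3 libraries that stood apart the shares were 44.2%, 11.7% and 23.5%, against 30.6%, 7.67% and 10.0% of all such sites. No test of these differences was run.

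**Figure D4:**
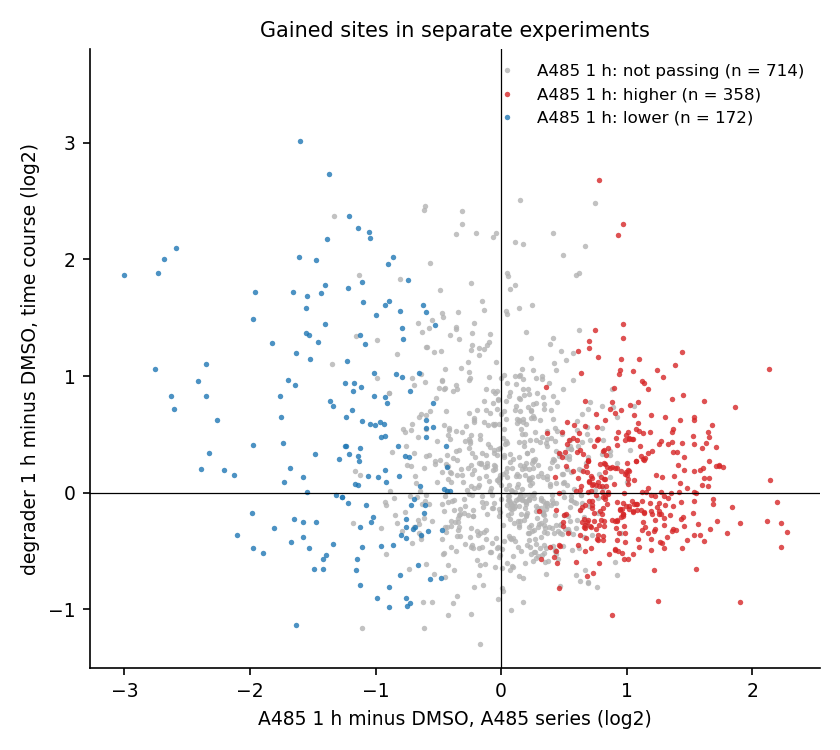
Log2 change of 1244 gained sites after 1 h of A485 against DMSO in the A485 series (x axis) and in the libraries labelled degrader 1 h against DMSO in the time course (y axis), coloured by the limma call for A485 (grey not passing, red higher, blue lower). The blue points reach further up than the red ones: 37.2% of them passed as higher in the time course, and 7.82% of the red ones did.

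When both agents were given for 1 h, 303 gained sites were higher than DMSO and 132 lower (24.0% and 10.5%, against 16% and 20.1% of all sites), with a median log2 change of 0.18. At 15 min the counts were 111 and 152 (8.8% and 12%, against 9.6% and 13.3%) and at 30 min 231 and 128 (18.3% and 10.1%, against 13.2% and 17.3%). As with A485 alone, the library numbering changes between 15 min and 30 min, so it cannot be told apart from time. Set against A485 alone at 1 h, adding the degrader left 30 higher and 38 lower (2.38% and 3.01%, against 3.98% and 2.02%), with a median of -0.07. The higher count was 10 with edgeR, and the lower count was 40.

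Whether the degrader's effect differed with A485 present was tested directly. The interaction at 1 h, the change of both agents over A485 minus the change of degrader over DMSO, was below 0 at 268 of 1262 gained sites (21.2%, against 9.73% of all sites) and above 0 at 13 (1.03%, against 6.53%). Its median was -0.52, against -0.00 over all sites. Leaving out single libraries gave 165 to 380 below 0, the lowest without DMSO replicate 4. Above 0 it gave 4 to 14, with 4 and 6 without DMSO replicates 4 and 5. The other replicates whose removal took that number from 13 to 7 or 8 were the 3 of both agents for 1 h and the 3 of degrader for 1 h.

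At the chromosome 13 site at 83259691, which met the minimum mean only through the groups with degrader alone, the interaction was -3.02 ± 0.55 (adjusted p = 0.0003). It had 13.7, 12.7 and 6.92 normalized counts after A485 and 10.5, 11.1 and 10.9 after both agents, beside 60.7, 74.1 and 69.0 after the degrader alone. At chr3:105608111-105608760 the counts were 12.8, 13.3 and 10.8 in DMSO, 55.3, 46.2 and 70.8 after the degrader, 10.3, 30.95 and 22.5 after A485 and 13.6, 11.1 and 23.4 after both (-2.44 ± 0.48, adjusted p = 0.00066). The chromosome 12 site at 69804891 had 23.9, 26.7 and 12.1 after A485 and 47.2, 54.3 and 51.5 after both, against 293, 275 and 208 after the degrader alone (-1.17 ± 0.37, adjusted p = 0.027).

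The opposite was rare. At chr4:11965381-11965660 the counts were 11.0, 12.2 and 11.8 in DMSO, 5.35, 2.62 and 6.38 after the degrader, 3.42, 1.41 and 6.92 after A485 and 9.44, 15.3 and 11.7 after both (2.75 ± 0.64, adjusted p = 0.0034). Each agent alone lay below DMSO there, while both together overlapped it.

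**Figure D5:**
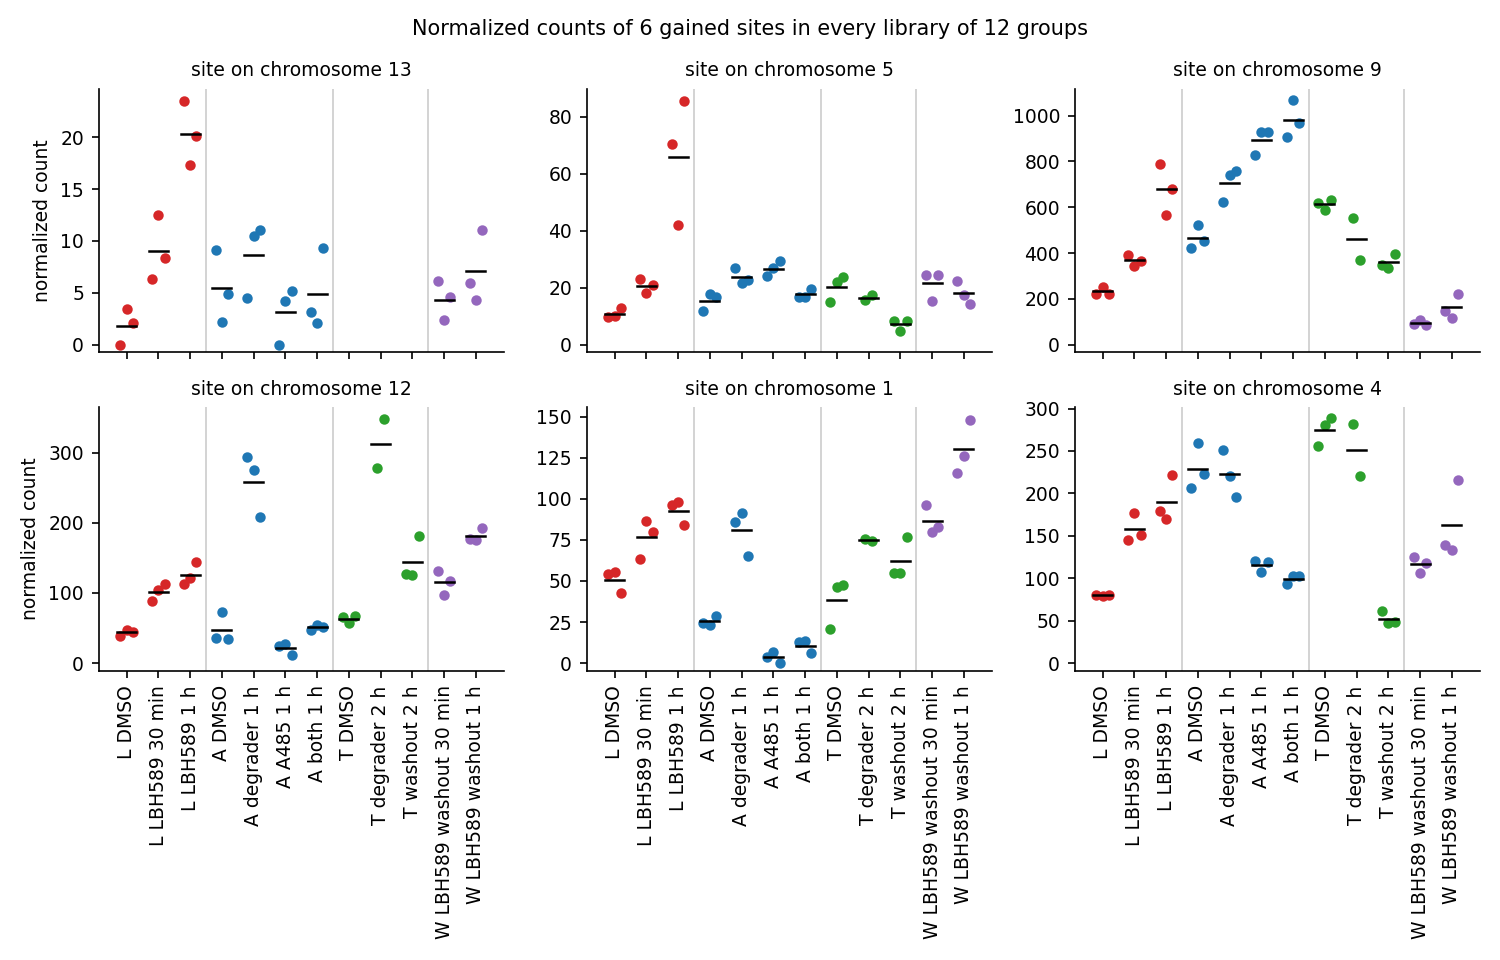
Normalized counts (y axis, linear, own scale in each panel) of 6 gained sites in every library of 12 groups; points are libraries, bars are group means, and the letters L, A, T and W mark the LBH589 series, the A485 series, the time course and the LBH589 washout series. The chromosome 13 site (highest LBH589 ratio) is not in the time course table, and at 1 h in the A485 series the chromosome 12 site reaches 293 counts with the degrader and 54.3 with both agents.

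Washout of the degrader was compared with 2 h of degrader and with DMSO. At 2 h of washout 182 of 1370 tested were lower than in the libraries labelled degrader 2 h and 26 were higher (13.3% and 1.90%, against 6.13% and 5.64% of all sites), with a median log2 change of -0.34, against -0.00 over all sites. Against DMSO 424 were lower and 145 higher (30.9% and 10.6%, against 13% and 17.6%), with a median of -0.39, against 0.02. Both calls were lower at 111 sites. Neither group of the comparison with DMSO holds a library with conflicting labels or one of the 3 that stood apart. The DMSO libraries are named 0 h, and no group had a washout without degrader. Removal of the degrader, elapsed time and the washout procedure therefore cannot be told apart. At 1 h of washout 43 were lower and 15 higher than at degrader 2 h (3.14% and 1.09%, against 2.9% and 2.45%). At 30 min limma called 0 gained sites in either direction (0.00429% of all sites were higher and 0% lower), with all libraries kept. There edgeR called 0 too, and 115 were past an unadjusted p of 0.05. The share of dREG signal in gained sites was 1.75% in degrader 30 min replicate 3, beside 2.44% and 2.38% in replicates 1 and 2. In 30 min washout replicate 3 it was 2.42%, beside 1.70% and 1.78% in replicates 1 and 2. Each replicate 3 thus had the level of the other group, and whether these libraries were exchanged was not tested. All 30 min counts with them kept carry this limit.

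These counts also rest on a few libraries. Without degrader 2 h replicate 1 or 2, the lower sites at 2 h of washout numbered 29 or 43, and without washout 2 h replicate 2 they numbered 90. The higher ones numbered 9, 6 and 15 without degrader 2 h replicate 1, replicate 2 or washout 2 h replicate 3. Without the 3 libraries that stood apart, whose part is in the shared estimate of the spread, 358 were lower and 44 higher than degrader 2 h (11.8% and 11.9% of all sites), and 545 were lower and 183 higher than DMSO (18% and 22.8% of all sites). Without them the washout of 30 min gave 130 lower and 50 higher (8.95% and 7.83% of all sites), and that of 1 h gave 197 lower and 40 higher (9.62% and 9.68%). With every library scaled to its total dREG reads the median over all sites moved by -0.10 and that of gained sites to -0.44.

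A clear fall was seen at chr4:132240971-132242030. It had 256, 281 and 289 normalized counts in DMSO, 281 and 220 in the libraries labelled degrader 2 h and 61.4, 46.9 and 48.5 after 2 h of washout (-2.24 ± 0.33 against degrader 2 h, adjusted p = 0.00014). Under LBH589 it had 80.7, 79.6 and 79.9 in DMSO, 145, 176 and 151 at 30 min and 179, 169 and 221 at 1 h, and A485 lowered it in the A485 series from 206, 259 and 223 to 120, 107 and 119 (-0.98 ± 0.15, adjusted p = 1.9e-06). At chr5:66148251-66148620 the counts went from 39.9 and 47.5 to 8.47, 11.7 and 13.7 (-1.88 ± 0.37, adjusted p = 0.0022), with 69.1, 43.9 and 40.3 in DMSO.

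Of the 26 sites that were higher than at degrader 2 h, 19 were also higher than DMSO. At chr1:72907841-72909430 the counts were 69.1, 50.3 and 65.6 in DMSO, 89.7 and 71.6 in the libraries labelled degrader 2 h and 287, 232 and 264 after 2 h of washout (1.69 ± 0.23, adjusted p = 8.9e-05). At chr11:69499741-69500260 they were 13.1, 12.8 and 17.9 in DMSO, 13.1 and 5.18 with degrader and 32.8, 31.2 and 38.4 after washout (1.91 ± 0.45, adjusted p = 0.0077).

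The 30 min response to LBH589 split the gained sites further. Of the gained sites with a 30 min log2 ratio of at least 0.8, 395 were tested and 22.5% were lower at 2 h of washout than at degrader 2 h. That share was 13.3% of all gained sites tested and 6.13% of all sites. Their median was -0.63. Of those at or under 0 at 30 min, 42 were tested, 0 passed as lower and the median was -0.01. The 2 sets also differed in their median log2 ratio at 1 h of LBH589, 1.23 and 0.92. These calls rest on the 2 libraries labelled degrader 2 h, and they were not recounted without the 3 libraries that stood apart. With 1 h of A485 these late sites had a median of 0.55 over 37 tested, and the early ones one of 0.17 over 352. The difference between the groups was not tested.

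The LBH589 washout series allows 1 comparison, 1 h against 30 min of washout. There 72 of 1002 tested passed as higher (7.19%, against 2.83% of all sites) and 3 as lower (0.299%, against 2.7%), with a median log2 change of 0.50 and a middle range of 0.13 to 0.86, against -0.00 over all sites. The summed share of dREG signal was 1.96%, 1.88% and 1.95% in the 30 min libraries and 2.70%, 2.35% and 3.03% in the 1 h libraries, without overlap. The calls hang on the 30 min libraries: without 30 min replicate 1, 2 or 3 the higher sites numbered 3, 0 and 0. In those fits 253, 245 and 246 were higher past an unadjusted p of 0.05. Without 1 h replicate 1, 2 or 3 the higher sites numbered 81, 56 and 128. The lower sites numbered 0 without any of the 30 min replicates and 15 without 1 h replicate 3. The median stayed between 0.41 and 0.61 in these fits.

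The largest rise was at chr11:77985501-77986100, from 34.5, 21.4 and 22.8 normalized counts to 116, 110 and 328 (2.61 ± 0.36, adjusted p = 0.0053), and without 1 h replicate 3 the change was 2.10 ± 0.25 (adjusted p = 1.9e-07). It was among the sites that A485 raised, from 66.8, 71.2 and 77.4 in DMSO to 277, 165 and 159 (1.42 ± 0.20, adjusted p = 2.6e-07), while after 1 h of degrader it had 76.7, 63.7 and 82.9 (0.05 ± 0.20, adjusted p = 0.89). The strongest gained site, on chromosome 5 at 77241761, rose from 324, 305 and 408 to 737, 627 and 1150 (1.24 ± 0.21, adjusted p = 0.013). One of the 3 falls was at chr17:41158601-41159120, from 54.8, 55.8 and 63.8 to 23.4, 15.1 and 28.8 (-1.38 ± 0.28, adjusted p = 0.021), and in the A485 series that site went from 44.8, 28.9 and 41.2 in DMSO to 19.6, 5.23 and 16.8 after 1 h of degrader (-1.55 ± 0.44, adjusted p = 0.0075). In the time course it did not pass at any time of degrader, with 0.00 ± 0.38 in the libraries labelled degrader 1 h (adjusted p = 0.998).

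For comparison, 852 sites met the mirror rule, with a log2 ratio of -0.8 or less and a DMSO mean of at least 20. With 1 h of A485, 58.0% of the 755 tested were lower and 9.67% higher. By 2 h of washout 48.0% of 823 tested were higher than DMSO and 4.50% lower, and the interaction was above 0 at 16.3% and below 0 at 2.12% of 755. In these 3 comparisons the shares lie on the other side of the background from those of the gained sites. With the degrader in the time course, all libraries kept, they do not. There 21.1%, 21.7%, 20% and 18.1% of the 823 lost sites tested rose at 15 min, 30 min, 1 h and 2 h. These shares were above both the gained sites and all sites. Median log2 changes of lost sites were 0.13, 0.12, 0.11 and 0.19, against 0.18, 0.04, 0.14 and -0.12 for gained sites. Shares of lost sites without the 3 libraries that stood apart are not given. In the A485 series 9.27% of 755 lost sites rose after 1 h of degrader and 16.7% fell, against 16.2% and 10.4% of all sites. No test of these differences was run.

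The genes of the enzymes that the inhibitors target were read in the gene tables. Of the 11 classical HDAC genes and the genes of p300 and CBP, all 13 were tested in the gene table of the LBH589 series, where 6 were higher and 5 lower than DMSO at 1 h (32.4% and 34.6% of all 12553 genes were), so that most genes of the table passed and the list's counts say little about these genes. Hdac5 (log2 change 1.28 ± 0.08, adjusted p = 2.6e-14), Hdac6, a largely cytoplasmic deacetylase (1.02 ± 0.08, adjusted p = 3.6e-12), and Hdac1, a catalytic subunit of nuclear corepressor complexes (0.56 ± 0.04, adjusted p = 1.7e-12), rose, and Hdac7 fell (-0.82 ± 0.03, adjusted p = 1.9e-18). Ep300 (-0.15 ± 0.03) and Crebbp (-0.14 ± 0.04) fell slightly, with adjusted p of 0.00034 and 0.0014. At 30 min 3 were higher and 2 lower (17.8% and 21.9% of all genes). Under A485 for 1 h, 7 were higher and 1 lower (29.4% and 33.2% of 12597 genes), the fall being Hdac7 (-1.91 ± 0.05, adjusted p = 8.8e-28). The LBH589 libraries are those on which the gained sites were chosen, so these genes lend the sites no support.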

How the data were processed

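PRO-seq tables of dREG sites and genes were used for 65 libraries. The deposited values are signal made by the authors, counts that DESeq2 had normalized, per the labels. Tools named in the submitters' processing notes are DESeq2 1.46.0, featureCounts 2.0.1, HOMER, bedtools, SAMtools 1.16.1 and Bowtie2 2.2.2, with builds dm3 and mm39. The sources used here give no parameters and do not say whether dm3 entered the scaling. A shift shared by most sites would not show after size-factor scaling. Whole reads were recovered for 100% of values (tolerance 0.1) from each library's smallest step.

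Tests covered sites averaging 10 or more and ran on log2(value + 1) by limma-trend (limma 3.58.1, R 4.3.3), all groups of a table in one model, Benjamini-Hochberg over all tested sites. On that scale the changes of low sites come out too small. Alternatives were edgeR 4.0.16 (quasi-likelihood) on recovered reads, pseudocounts, the filter, scaling, a replicate block and leaving out libraries; scripts were tested on simulated data. Same-numbered libraries did not deviate together (mean correlation -0.01 in the A485 series), so numbers were not treated as pairs.

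Members and lists were chosen with earlier results of these data known. Named sites are the 8 highest LBH589 ratios, the 8 highest LBH589 1 h means, the 4 largest called rises and falls of the main comparisons (3 for the interaction), and the 3 nearest each side of the threshold, of which examples are given; the run on chromosome 13 and the sites that peaked at 30 min were singled out after their values were seen. Gene context and sequences of sites are not given, since no mm39 genome was used here. Per-gene values took each symbol's transcript with the highest mean.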

Additional observations from a re-analysis of the deposited data

Results flagged for a closer look

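The effect of the degrader at 1 h differed between cells with and without A485, by a test of the difference itself (limma interaction term, adjusted p under 0.05). It was lower with A485 at 268 of 1262 gained sites tested (21.2%, against 9.73% of all sites). It was higher at 13 (1.03%, against 6.53%). The A485 1 h libraries were the shallowest of the 4 groups (857558 to 2131083 reads), and without the shallowest of them 380 were lower and 11 higher. The part of depth in these counts was not tested.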

How the results depend on the processing

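The choice of sites gave 813 with a threshold of 1 and 687 with a minimum mean of 50, and 1376 to 1595 when single libraries were left out. After 1 h of A485 the lower sites were 93 with 2 groups alone, and leaving out single libraries gave 292 to 425 higher and 124 to 172 lower. After 1 h of degrader the lower sites were 45 with 2 groups alone, 41 with edgeR, 42 with the replicate block and 14 to 19 without single libraries (280 to 371 higher). For the interaction single libraries gave 165 to 380 lower and 4 to 14 higher. At degrader 2 h they gave 74 to 148 higher and 3 to 33 lower, and 138 lower without the 3 libraries that stood apart. For 2 h of washout against degrader 2 h they gave 6 to 19 higher and 29 to 126 lower, and 44 higher and 358 lower without those 3. In the LBH589 washout series they gave 0 to 128 higher and 0 to 15 lower, no minimum mean gave 0 and 0, although 319 and 30 were past an unadjusted p of 0.05, and edgeR gave 5 lower. With the replicate block the higher sites after 1 h of degrader numbered 503, the interaction gave 267 lower and 13 higher, degrader 2 h 124 and 37, washout 2 h 24 and 164, and the LBH589 washout 76 and 3; no block was fitted for A485 1 h, which shares no numbers with DMSO. For the choice of sites and these 6 comparisons the other alternatives stayed within 1.5 times; other comparisons were rerun only with edgeR and, in the time course, without the 3 libraries. The cause of these changes was not tested. Leaving out libraries for the interaction, scaling by total reads and leaving out the 3 libraries at degrader 2 h were chosen after seeing the data. Groups of 2 or 3 libraries and sites of about 20 counts limit what could be called, and intervals over cultures cannot be given.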
